A study of Mus musculus with 8 samples.

Results

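Kcne4 and Gprc5a encode membrane proteins, and they are described here in cultured mouse bone marrow mesenchymal stem cells (MSCs) with and without a conditional deletion of Mettl3, the enzyme that writes N6-methyladenosine (m6A) into mRNA. They are 2 of the 47643 named entries of a gene expression table. They were picked by symbol, with their large difference between the genotypes already known, so their own change is given as a description without a test. The other 7 genes of the Kcne and Gprc5 families in the table were set beside them.

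The series holds 8 samples. RNA-seq covered 2 wild type (WT) libraries and 2 conditional knockout (cKO) libraries, and MeRIP-seq, which sequences mRNA fragments pulled down by an anti-m6A antibody, covered 2 immunoprecipitates and 2 inputs of WT cells. All samples were C57BL/6 marrow cells flushed from tibiae and femurs and held in osteogenic medium for 2 days, with ascorbic acid at 50 μg/ml, β-glycerophosphate at 5 mM and dexamethasone at 100 nM. The cKO cells were Prx1-Cre;Mettl3fl/fl, and per the study's methods the WT cells came from littermate controls with floxed Mettl3 and no Cre. Prx1-Cre is active in the limb bud mesenchyme, so the haematopoietic cells of a marrow culture keep Mettl3. Age and the number of animals per library were not in the labels, and nothing there says that libraries came from separate mice, so the p-values measure only the spread between these libraries.

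The RNA-seq libraries held 23978099 to 34106693 counts. The WT pair differed by 32.6 times the chi-square expected from counting noise, against 1.82 times for the cKO pair, which therefore lay close to counting noise. Mettl3 itself had 596 and 478 counts in WT and 424 and 520 in cKO (log2 fold change −0.03 ± 0.0929 SE, Benjamini-Hochberg adjusted p = 0.824, edgeR quasi-likelihood test). Counts over the whole gene thus did not show the deletion of its exons, and for these libraries the genotype rests on the labels. The study itself reports the loss of Mettl3 by immunostaining and western blot, and a lower m6A level in MSCs. Marrow stroma markers such as Col1a1 and Prrx1 were present, but so were macrophage markers, whose summed level as CPM (counts scaled to a library of fixed size) was 14240 to 19243 in WT and 19049 to 19169 in cKO. These cultures were therefore mixed, and fewer cells of a type and less RNA per cell cannot be told apart in them.

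KCNE proteins are small single-pass membrane proteins that join the pore-forming subunits of voltage-gated potassium channels and change how much current passes and how fast the channel opens and closes. KCNE4 is known mainly as an inhibitory subunit, acting on the channels of Kcnq1, Kcna1 and Kcna3, and it binds calmodulin. GPRC5 proteins are orphan receptors of class C, the class of the metabotropic glutamate and GABA-B receptors, with a short extracellular end. Gprc5a was first described as a gene induced by retinoic acid and is best known from lung epithelium. m6A is laid down mostly in GGAC-type sequences, often near the stop codon, and it affects the splicing, decay and translation of the mRNA that carries it.

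The sequences that matter for the comparison are the GGAC sites nearest to the summits of the m6A peaks on these families, since GGAC is the sequence most often methylated. A peak is far wider than a site, so the mark was not measured at these bases themselves. Each is read 5′ to 3′ on the strand of the gene, from the mm9 genome, with GGAC in capitals.
Kcne4 3′UTR site: gttcctgtgGGACtcatctctg
Gprc5b 3′UTR site: cagggggcaGGACagagaagaa
Gprc5c coding site: atttgtgcaGGACactaagaag
Gprc5c 3′UTR site: aactgggagGGACcagaggcca
The Kcne4 site lay at chr1:78814891-78814912 on the plus strand and the Gprc5b site at chr7:126118344-126118365 on the minus strand. The Gprc5c sites lay at chr11:114725037-114725058 and chr11:114731759-114731780, both on the plus strand. Gprc5a has no line because no peak of the list fell on it.

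Kcne4 (ENSMUSG00000047330, GRCm38 chr1:78816758-78820028, plus strand) was among the more abundant transcripts of WT MSCs and was nearly lost in cKO. It had 5346 and 4188 counts in the WT libraries and 47 and 55 in the cKO libraries. The 95% exact Poisson intervals of the cKO counts, which cover counting error only, ran from 34.5 to 62.5 and from 41.4 to 71.6. In CPM the level was 153.1 ± 7.05 (SD, n = 2) in WT and 1.83 ± 0.151 (SD, n = 2) in cKO. The difference was thus far larger than the gap within either pair. The log2 fold change was −6.39, so that cKO kept 1.20% of the WT level and WT exceeded cKO 83.6-fold. Over the 4 possible pairs of a WT with a cKO library this fold ran from 76.4 to 91.6. The SE of the log2 fold change, derived from the edgeR F statistic, was 0.0980, which is below counting error at these cKO counts. DESeq2 gave −6.39 with an SE of 0.178.

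Gprc5a (ENSMUSG00000046733, GRCm38 chr6:135065651-135084709, plus strand) followed the same course from a lower start. It had 1586 and 1407 counts in WT and 10 in each cKO library, where the exact Poisson interval of a count ran from 4.80 to 18.4. In CPM this was 48.3 ± 2.03 (SD, n = 2) against 0.363 ± 0.0700 (SD, n = 2). The log2 fold change was −7.06, with 0.751% of the WT level kept in cKO, and the fold of 133.1 ran from 113.7 to 158.6 over the pairs of libraries. Its SE on the log2 scale, derived from the edgeR F statistic, was 0.148, again below counting error. DESeq2 gave −7.08 with an SE of 0.352. The few cKO counts make the Gprc5a fold the less precise of the 2.

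The WT and cKO libraries did not overlap for either gene, which was also so, in the same direction, for 35.0% of the 15327 tested genes, and in either direction for 68.9%. By adjusted p, 30.5% of the tested genes were called, 16.8% lower and 13.7% higher in cKO. That balance turned round with limma on TPM, with 1442 genes lower and 1779 higher on log2(TPM + 0.1) and 1414 lower and 1775 higher on log2(TPM + 1), against 2577 lower and 2100 higher in edgeR. On log2(TPM + 0.1) the median log2 fold change of all tested genes was 0.10 higher than in edgeR, a shift against which changes on that scale are to be read. What set the pair apart was size, which is also why they were picked. Gprc5a stood 23rd and Kcne4 38th from the lowest log2 fold change, and 50 genes, 0.326% of those tested, fell by 6 or more on the log2 scale. The median log2 fold change over all tested genes was −0.00.

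Levels of different genes can be compared only per length, in TPM, the share of transcripts after correction for length. Kcne4 stood at 86.06 and 78.76 TPM in WT, and 11.7% of tested genes had a higher mean there. In cKO it stood at 1.12 and 1.0 TPM, and 83.4% of tested genes were higher. Gprc5a had 33.64 and 34.77 TPM in WT and 0.31 and 0.24 TPM in cKO, with 25.6% and 94.4% of tested genes above it. Kcne4 therefore had 2.56 and 2.27 times the TPM of Gprc5a in the WT libraries, and 3.61 and 4.17 times in the cKO libraries. The ratio was higher in both cKO libraries, but its cKO values rest on 10 Gprc5a counts each.

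**Figure D1:**
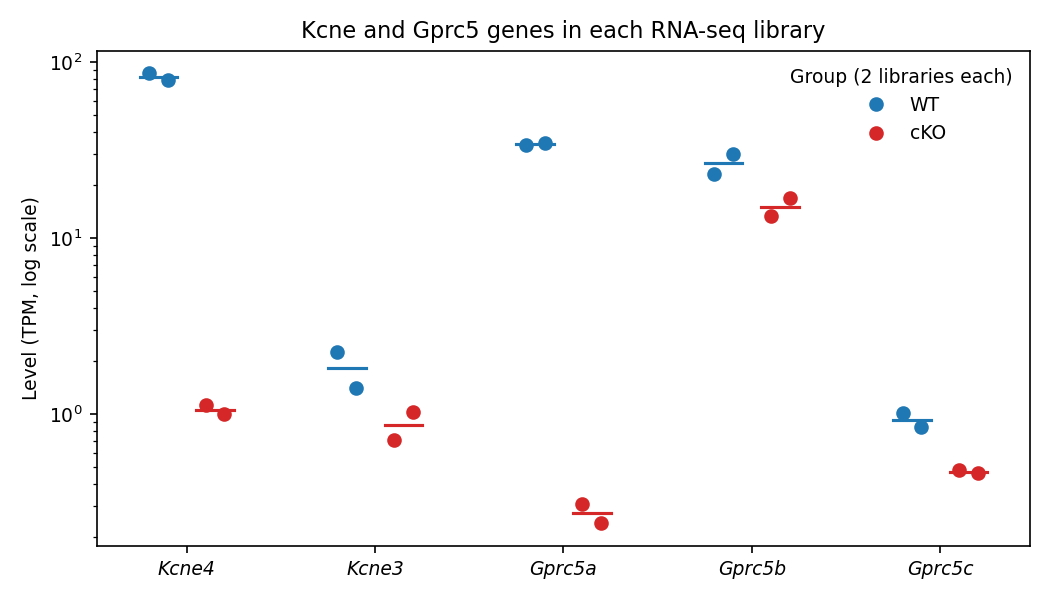
Level in TPM (log axis) of the 5 tested Kcne and Gprc5 genes in each library, with WT in blue, cKO in red and a bar at the mean of the 2 libraries. Kcne4 drops from 86.06 and 78.76 to 1.12 and 1.0 TPM and Gprc5a from 33.64 and 34.77 to 0.31 and 0.24, while Gprc5b, Gprc5c and Kcne3 drop far less.

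Of the other Kcne genes none came near Kcne4. Kcne3, a subunit known for holding Kcnq1 channels open in epithelia, had 39 and 27 counts in WT and 10 and 20 in cKO. Its log2 fold change of −0.995 ± 0.378 (SE) missed the threshold (adjusted p = 0.0947, edgeR). Kcne1, the partner of Kcnq1 in the heart, was at 0 in every library, which allows up to 3 counts. Kcne2 and Kcne1l each had at most 2 counts in any library. No entry carried the symbol Kcne5.

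The Kcne transcripts of WT MSCs were thus nearly all Kcne4, which made up 97.4% and 98.1% of the family's summed TPM of 88.35 and 80.28. In cKO the family summed to 1.87 and 2.16 TPM, with Kcne4 at 59.9% and 46.3%. Kcne4 and Kcne3 could not be ordered in cKO, since Kcne3, at 0.71 and 1.03 TPM, overlapped Kcne4 there.

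Among the Gprc5 genes the order of levels turned round. Gprc5b, an orphan receptor abundant in brain and adipose tissue, had 2452 and 2678 counts in WT and 986 and 1401 in cKO. It fell by 0.98 on the log2 scale (SE 0.130, adjusted p = 0.00278, edgeR), a WT level 1.98-fold above cKO. In WT, Gprc5a at 33.64 and 34.77 TPM lay above Gprc5b at 22.97 and 29.95 TPM. In cKO, Gprc5b at 13.27 and 16.82 TPM lay far above Gprc5a. Gprc5b accordingly went from 39.8% and 45.7% of the family's summed TPM in WT to 94.4% and 96.0% in cKO, while Gprc5a went from 58.3% and 53.0% to 2.20% and 1.37%.

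Gprc5c, the third measurable member of that family, was scarce. It had 74 and 51 counts in WT and 23 and 27 in cKO, or 1.01, 0.84, 0.48 and 0.46 TPM. It fell by 1.16 on the log2 scale (SE 0.279, adjusted p = 0.0240, edgeR), but this call was lost when either cKO library was left out (adjusted p = 0.122 without cKO replicate 1 and 0.182 without cKO replicate 2). Gprc5d, known from plasma cells and hard keratin tissues, had 1 count in all. Of the 7 family genes beside the pair, 3 passed the expression filter, with 2 called lower and 0 called higher. In each of these 3 the WT fold lay between 1.98 and 2.22.

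**Figure D2:**
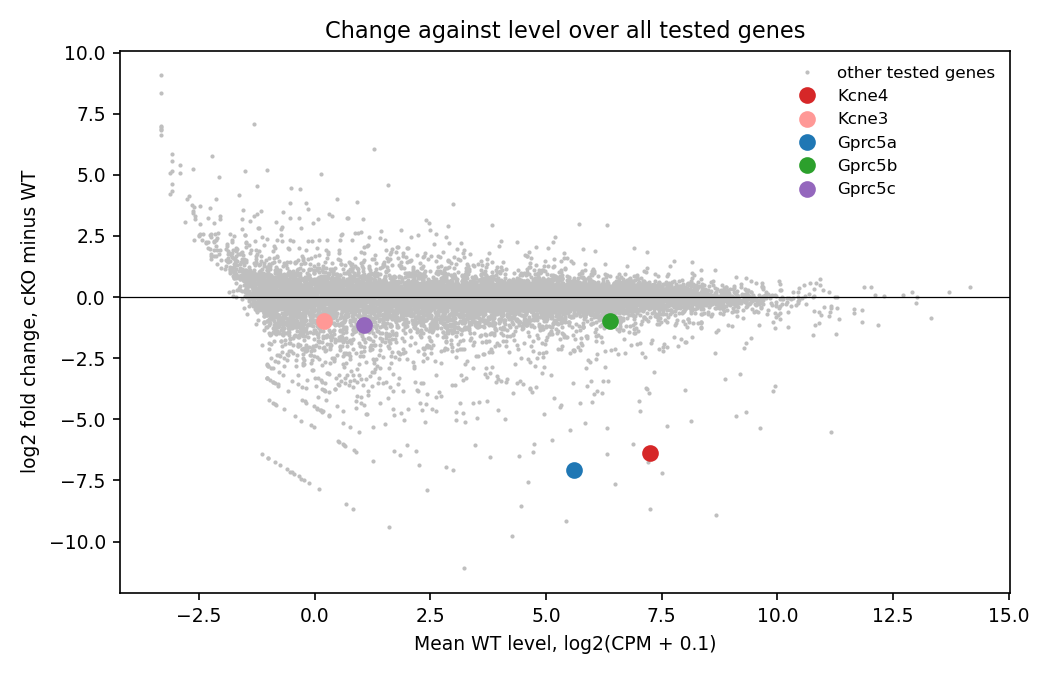
Log2 fold change of cKO minus WT against the mean WT level as log2(CPM + 0.1) for all 15327 tested genes in grey, with the 5 tested Kcne and Gprc5 genes in colour. Kcne4 (−6.39) and Gprc5a (−7.06) lie far below the grey band, while Gprc5b (−0.98), Gprc5c (−1.16) and Kcne3 (−0.995) lie at its lower side; straight grey rows at low levels are genes with the same few cKO counts.

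KCNE4 acts only on a pore-forming subunit, so a list of the voltage-gated potassium channel genes and Kcnma1 was read next. Of its 41 genes in the table, 16 passed the expression filter and 16 had 3 or fewer counts in every library. Of those tested, 9 fell, 2 rose and 5 did not pass the threshold. Over all tested genes 16.8% were called lower and 13.7% higher in cKO, the shares beside which this and the later lists stand. The median log2 fold change was −1.61, or −1.50 with the 5 genes that were near 0 in a group set at their floor. Those 5 near-0 genes passed the expression filter only through the group where they are high, so the filter fixed their direction. The counts of 9 and 2 and both medians still include them, and so do not show a shift of the list as a whole. The count of fallen genes went from 9 to 6 without either cKO library, and to 3 on log2(TPM + 1). The list summed to 9.16 and 9.67 TPM in WT and 7.19 and 5.81 in cKO, less than Kcne4 alone in WT.

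Kcnd1, an A-type channel subunit, had 136 and 117 counts in WT and 100 and 123 in cKO, and its log2 fold change of −0.03 did not pass (adjusted p = 0.903, edgeR). Kcna6 fell from 51 and 88 counts to 0 and 1, a ratio of 125.6 with a counting interval of 22.2 to 4997. Kcns1, a silent subunit that works only with Kcnb partners, fell from 70 and 60 counts to 2 in each cKO library, a ratio of 29.4 (11.2 to 109.4). Against these, Kcnd3 was at 0 in both WT libraries and had 9 and 18 counts in cKO, at least 4.80-fold higher than the floor of 3 counts per WT library. Kcna6, Kcns1 and Kcnd3 are among the near-0 genes whose direction the filter fixed, so no direction is read from them.

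The channel genes best known as KCNE4 partners were chosen after their values had been seen. Kcnq1 had 3 and 1 counts in WT and 1 and 0 in cKO, and Kcna1 had 2 and 0 in WT and 0 and 1 in cKO. Neither was measurable at this depth. Kcna3, the potassium channel of lymphocytes and macrophages, had 9 and 12 counts in WT and 24 and 30 in cKO, and it rose by 1.49 on the log2 scale (SE 0.406, adjusted p = 0.0355, edgeR), a call that 5 of 11 alternatives lost. Kcnma1, the large-conductance calcium-activated channel, had 47 and 50 counts in WT and 6 and 12 in cKO, with a log2 fold change of −2.29 (adjusted p = 0.00697, edgeR).

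**Figure D3:**
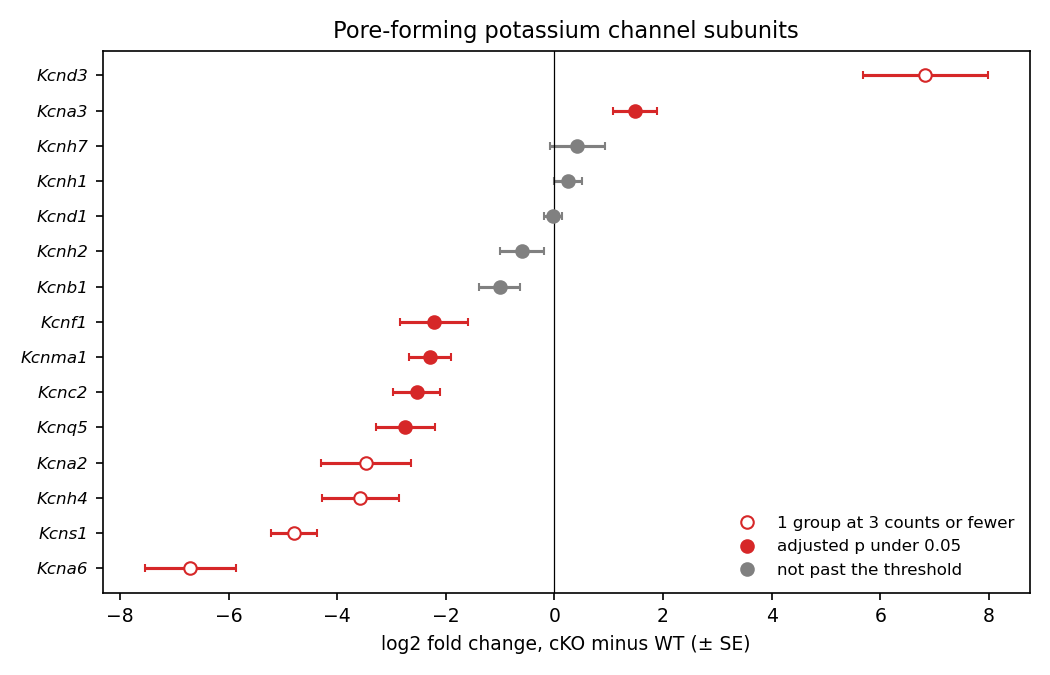
Log2 fold change of cKO minus WT with its SE for 15 of the tested pore-forming potassium channel genes, red where the adjusted p by edgeR is under 0.05 and open where a group has 3 or fewer counts in every library, whose fitted change depends on the prior count. Values run from Kcnd3, the highest, to Kcna6, the lowest, with 8 genes called below 0 and 2 called above. These counts include the open symbols, whose direction the expression filter fixed.

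Other auxiliary potassium channel subunits formed a list of 12 genes with 8 tested. Of these 1 fell, 4 rose and 3 did not pass, with a median log2 fold change of 0.19. The count of risen genes went from 4 to 2 without either cKO library. Kcnab2, a cytosolic beta subunit and the most abundant of them, had 47.35 and 42.37 TPM in WT and 57.34 and 53.24 TPM in cKO (log2 fold change 0.21, adjusted p = 0.0434, edgeR), a call lost under 7 of 11 alternatives. Kcnab1 rose from 2.28 and 2.37 TPM to 8.84 and 7.74 TPM (1.70, adjusted p = 0.000315, edgeR). Kcnip3, a calcium-binding partner of A-type channels, rose from 18 and 11 counts to 80 and 143 (3.06, adjusted p = 0.000994, edgeR). Kcnmb1, the smooth muscle beta subunit of Kcnma1, fell from 96 and 93 counts to 11 and 15 (−2.71, adjusted p = 0.00107, edgeR). The list summed to 53.31 and 48.07 TPM in WT and 71.91 and 68.47 in cKO, and in cKO Kcnab2 and Kcnab1 stood far above the 1.12 and 1.0 TPM of Kcne4.

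Of the calmodulin genes, whose protein KCNE4 binds, Calm2 fell slightly (log2 fold change −0.35, adjusted p = 0.0124, edgeR) and Calm3 rose slightly (0.25, adjusted p = 0.0270, edgeR). The Calm2 and Calm3 calls were lost without either cKO library.

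For Gprc5a the related lists were the class C receptors and the retinoid genes. Of 18 class C receptors, 10 had 3 or fewer counts in every library and 3 were tested. Gabbr1, a GABA-B receptor subunit, rose from 10.2 ± 0.153 to 13.6 ± 0.608 CPM (SD, n = 2 each; log2 fold change 0.42, adjusted p = 0.0243, edgeR), and the call was lost without either cKO library. Tas1r3, a taste receptor subunit, did not pass (0.66, adjusted p = 0.176, edgeR), nor did Gabbr2.

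The retinoid list, of receptors, binding proteins and enzymes of retinoic acid metabolism, moved in both directions. Of 20 genes 15 were tested, of which 4 fell, 5 rose and 6 did not pass, with a median log2 fold change of 0.16. The count of fallen genes went from 4 to 1 without cKO replicate 1 and to 2 without cKO replicate 2. Its summed level was higher in cKO, at 907.0 and 915.8 TPM against 438.2 and 414.6 TPM. Aldh1a1, which makes retinoic acid from retinal, rose from 59.27 and 55.12 TPM to 477.7 and 475.0 TPM (log2 fold change 2.96, adjusted p = 2.92e-06, edgeR). Rarb, a retinoic acid receptor that is itself a known retinoic acid target, rose from 30 and 29 counts to 209 and 276 (3.18, adjusted p = 0.000101, edgeR). Dhrs3, a retinal reductase, rose by 0.37 (adjusted p = 0.0173, edgeR), and its call was lost under 3 of 11 alternatives. The genes that fell, named after their values had been seen, were Rbp4, the plasma retinol carrier (−1.83, adjusted p = 0.000318, edgeR), Aldh1a3, another retinal dehydrogenase (−1.72, adjusted p = 0.0256), Cyp26b1, which degrades retinoic acid (−0.67, adjusted p = 0.0391), and the receptor Rarg (−0.53, adjusted p = 0.00600). Of these 4, Rbp4 was called under all 11 alternatives.

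The genes around each locus were read to see how far the change reached along the chromosome. Within 200 kb of Kcne4 the table held 6 entries, of which 2 were tested. Acsl3, a fatty acyl-CoA ligase 109.0 kb away, fell from 937 and 740 counts to 371 and 498 (log2 fold change −0.80, SE 0.0859, adjusted p = 0.00120, edgeR). Utp14b, 145.2 kb away and overlapping Acsl3, so that reads of the pair may not be separable, had a log2 fold change of −0.98 (adjusted p = 0.0209, edgeR), a call that 3 of 11 alternatives lost. The entries nearest to Kcne4 were the pseudogene Gm6159 and the noncoding Gm29187, both at 0 counts.

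Within 200 kb of Gprc5a the table held 16 entries, of which 7 were tested. Apold1, an early response gene of endothelium 78.8 kb upstream, fell from 72 and 80 counts to 6 in each cKO library (log2 fold change −3.50, SE 0.373, adjusted p = 0.00118, edgeR). The noncoding Lockd, 108.8 kb upstream, fell from 102 and 90 counts to 37 and 28 (−1.39, adjusted p = 0.0173, edgeR), a call that 3 of 11 alternatives lost. The nearest upstream gene, the RNA helicase Ddx47 at 41.9 kb, lies between Apold1 and Gprc5a. It had 2233 and 2171 counts in WT and 1515 and 2006 in cKO and did not pass (−0.19, adjusted p = 0.148, edgeR). Cdkn1b (−0.14, adjusted p = 0.233), Hebp1 (−0.02, adjusted p = 0.912), Fam234b (0.07, adjusted p = 0.708) and Gpr19 (0.22, adjusted p = 0.499) did not pass in edgeR either. Of the 9 tested neighbours of both loci, 4 fell and 0 rose, and 2 fell with limma on either TPM scale. The count of fallen neighbours also went up without WT replicate 1 and down without cKO replicate 2. Over all tested genes 16.8% were called lower and 13.7% higher, so 9 genes cannot show a change particular to these loci. Each of the 4 fell by less than Kcne4 and Gprc5a did.

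**Figure D4:**
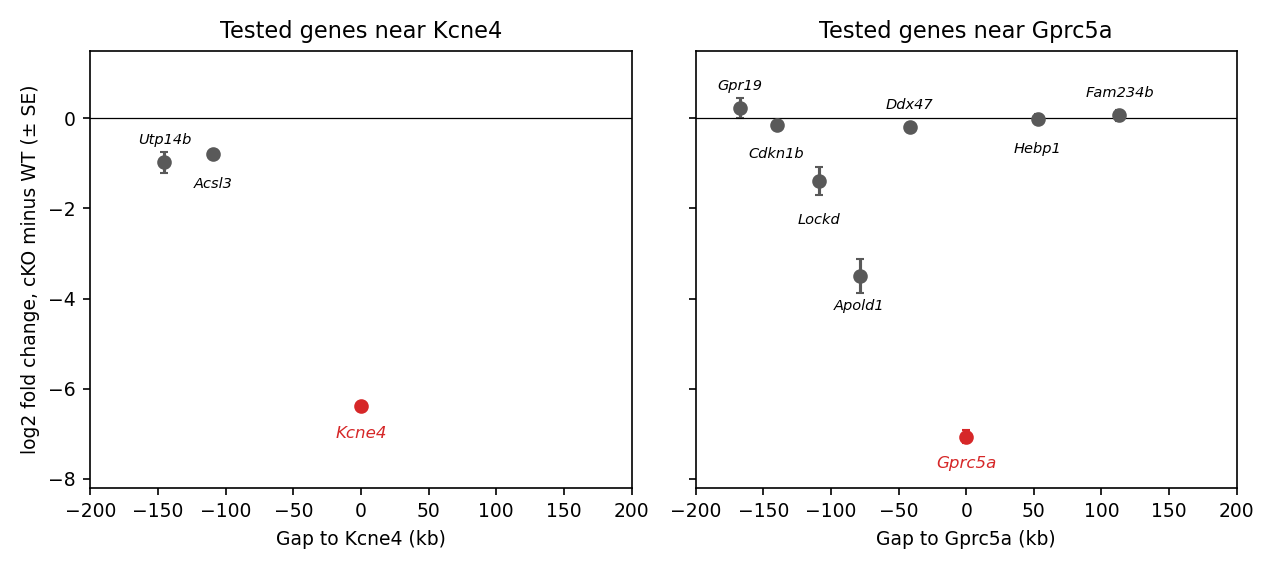
Log2 fold change of cKO minus WT with its SE for tested genes within 200 kb of Kcne4 (left) and Gprc5a (right), against the gap to that gene in kb, negative upstream. The SE comes from the F statistic and is too small for Kcne4, Gprc5a and Apold1. Kcne4 (−6.39) and Gprc5a (−7.06) lie below all 9 neighbours, of which Apold1 (−3.50) is the lowest and Ddx47 (−0.19), nearest to Gprc5a among the tested genes, lies near 0.

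The genes whose profile was most like that of Kcne4 over the 4 libraries were Col9a2, Gprc5a itself and Nr4a2. Likeness was the Euclidean distance between log2(CPM + 0.1) values centred on each gene's mean, which came to 0.434, 0.438 and 0.445. Col9a2, a chain of cartilage collagen, had 819 and 808 counts in WT and 9 in each cKO library. Nr4a2, an orphan nuclear receptor, had 3628 and 3621 counts in WT and 46 and 55 in cKO. For Gprc5a the closest were Hapln1 (0.218), which links hyaluronan to cartilage proteoglycan, Ppp1r1b (0.375), a phosphatase inhibitor, and Barx1 (0.380), a homeobox factor. Hapln1 went from 4378 and 4725 counts to 38 and 39, Ppp1r1b from 683 and 812 to 3 and 4, and Barx1 from 265 and 301 to 0 in both, at least 84.8-fold lower. Kcne4 stood 5th in that order. With 4 libraries of 2 groups such a distance mainly ranks genes by the size of the same difference.

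Markers of other cells moved between the same groups. Of 6 chondrocyte markers 5 fell, and their summed level went from 2875 to 2877 CPM in WT to 66.2 to 68.1 CPM in cKO. Of 6 epithelial markers 4 were tested and 3 fell, from 4.38 to 7.75 CPM to 0.867 to 1.16 CPM. Of those that fell, Epcam (0 and 1 counts in cKO) and Krt8 (2 and 5) passed the filter only through WT, which fixed their direction. Of 6 smooth muscle markers 4 fell, from 666.7 to 776.0 CPM to 466.0 to 478.1 CPM. Of 12 stroma markers 7 fell and 4 rose, from 4657 to 4837 CPM to 3183 to 3228 CPM. Of 6 adipocyte markers 1 fell and 4 rose, from 407.5 to 420.5 CPM to 731.3 to 738.3 CPM. Of 6 endothelial markers 4 were tested and 3 rose, with a sum of 9.66 to 11.03 CPM in WT and 24.03 to 26.4 CPM in cKO. Of 6 neutrophil markers 2 were tested and 1, S100a8, fell, and the sum went from 3.14 to 4.28 CPM in WT to 0.910 to 1.11 CPM in cKO, with S100a9 and Mpo at 0 in every library. Of 9 macrophage entries 1 rose and 0 fell. The part of these shifts in the Kcne4 and Gprc5a levels was not tested.

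The m6A map of WT cells was a list of 10160 peaks without replicate values, called on mm9, and it held 5 peaks on the Kcne and Gprc5 genes. Kcne4 carried 1, Gprc5b 1 and Gprc5c 3, whereas Gprc5a carried none, in its exons or introns (mm9 chr6:135015669-135034727). Of the protein-coding tested genes within 1.5-fold of the WT TPM of Gprc5a, 47.4% had an exonic peak (1166 of 2461, 95% exact binomial interval 45.4% to 49.4%). Within 1.5-fold of the WT TPM of Kcne4, 42.1% had one (620 of 1472, 39.6% to 44.7%). Over all 14118 tested genes found in the mm9 annotation the share was 39.8% (95% interval 39.0% to 40.6%). Gene by gene, either state was thus common at these levels.

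The Kcne4 peak (mm9 chr1:78814668-78814952, 285 bases) lay in exon 2 of 2. Its summit at 78814763 fell in the 3′UTR, 39 bases past the stop codon at chr1:78814722-78814724, which the peak covers. In another annotated Kcne4 transcript the same place is intronic. The peak was weakly covered, with a pileup of 13 fragments at the summit against a median of 60 over all peaks, and 5.97% of peaks had fewer. Its fold enrichment of 5.28 was above the median of 4.03 and higher than in 71.9% of peaks. Its −log10 q of 5.60 was below the median of 14.2 and above only 10.0% of peaks. A peak enriched but thinly covered is the plain description of these values, and the rank among all peaks was 9112 by q and 2835 by fold enrichment.

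The 30 bases at the Kcne4 summit (mm9 chr1:78814749-78814778) are shown because they hold no GGAC on the strand of the gene, and none of its relatives GAAC or AGAC. Only these and AAAC were searched for, so the TGAC that the window holds was not counted.
Kcne4 summit window: ctccgtaagctacacttgacagagggaaga
The peak as a whole held 1 GGAC, beside 2 copies of GAAC and 4 copies of AGAC. That GGAC, followed by T as in the fullest form of the m6A motif, is the Kcne4 site printed above, whose methylatable A lies 139 bases after the summit and 178 bases past the stop codon. On Gprc5b the summit (chr7:126118497) lay in the 3′UTR 176 bases past the stop codon, with a pileup of 46, a fold enrichment of 5.40 and a −log10 q of 17.4. The nearest GGAC was 143 bases away, but the 30 bases at this summit held a GAAC. On Gprc5c a coding peak in exon 2 of 5 (pileup 32, −log10 q 10.4) and a 3′UTR peak 98 bases past the stop codon (pileup 39, −log10 q 13.4) each had the A of a GGAC 5 bases from the summit. Its remaining peak, in an exon of another transcript, was as thin as that of Kcne4, with a pileup of 16 and a −log10 q of 5.26.

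The transcripts without a peak did not lack the motif. The Gprc5a transcript compared, ENSMUST00000050104, has 2083 bases in 4 exons with 1071 coding, and it holds 9 GGAC, or 4.32 per kb, near the median of 4.27 over 13384 protein-coding transcripts. The Kcne4 transcript, ENSMUST00000057262, has 2462 bases in 2 exons with 513 coding and a 3′UTR of 1875 bases, and it holds 7 GGAC, or 2.84 per kb, a density above that of 19.8% of transcripts. For GGACT the order was the reverse, with 0.812 per kb in Kcne4, above 34.6% of transcripts, and 0.480 per kb in Gprc5a, above 16.9%. Gprc5c was the densest of the genes with a peak, at 7.64 per kb, above 93.9% of transcripts. Kcne3, at 6.85 per kb, had no peak, and 31.3% of coding genes near its WT TPM had one. No MeRIP library of cKO cells was among the samples, so the mark was not compared between genotypes.

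**Figure D5:**
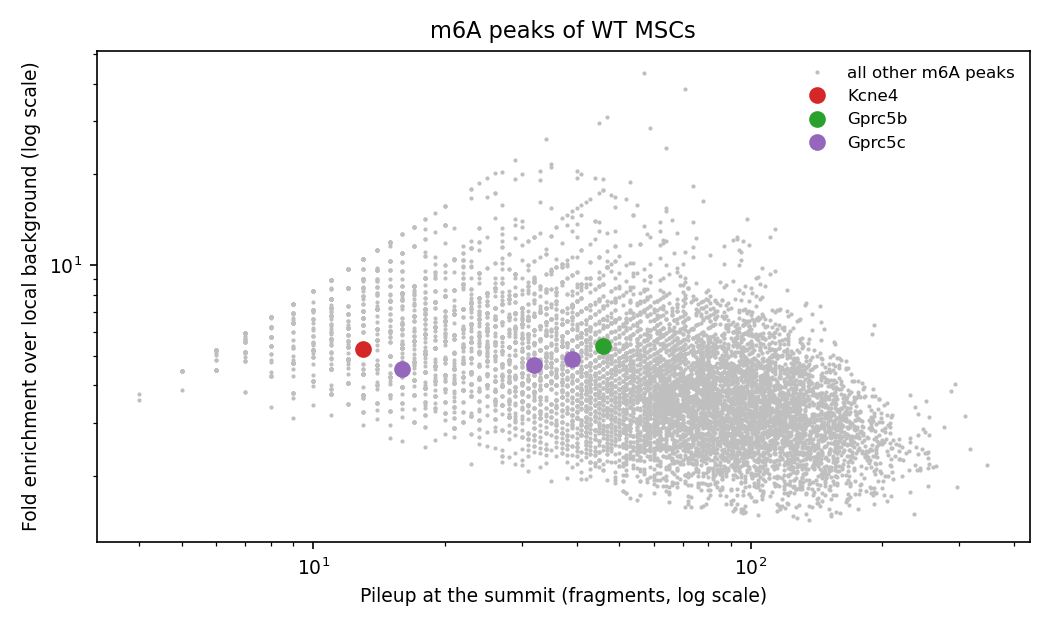
Fold enrichment over local background against pileup at the summit in fragments (both log axes) for the 10160 m6A peaks of WT MSCs, with the peaks of Kcne4, Gprc5b and Gprc5c in colour. The Kcne4 peak sits at the left with a pileup of 13 and a fold enrichment of 5.28, and those of Gprc5b and Gprc5c at pileups of 16 to 46.

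The promoter of Kcne4 was searched for a few motifs of common transcription factors, chosen with the expression values known. The window from RefSeq (GRCm38.p6) ran from 250 bases before the start to 50 after it, chr1:78816661-78816960, plus strand. It held TGACG, the core bound by CREB-type factors, once, 50 bases before the RefSeq start, and the stretch around it is shown with that motif in capitals. The annotation of the expression data starts the gene earlier, at 78816758, so by that annotation the motif lies inside the gene.
Kcne4 promoter stretch at chr1:78816851-78816875: ccggaacacgTGACGatgcatttct
On either strand the window held none of the full cAMP response element TGACGTCA, the AP-1 site TGANTCA, the NR4A site AAAGGTCA, the TATA box TATAAA or the GC box GGGCGG. Of 32851 RefSeq promoter windows of the same length, 20.8% held the CREB core and 1.79% the full response element, which contains that core. The AP-1 site occurred in 7.81% of them, the NR4A site in 1.51%, the TATA box in 13.6% and the GC box in 35.7%. A match here is only a match of letters. Gprc5a, Gprc5c and Kcne1 had no entry.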

How the data were processed

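The members and the gene lists were chosen with earlier results of these data known. Per the study's methods, poly-A mRNA was sequenced from NEBNext Ultra libraries, and the submitters' processing notes name HISAT2 2.0.4, TopHat, MACS2 and the builds mm10 and mm9. How reads were counted, and whether by strand, is not given in the sources used here. The authors deposited 1 table of 47732 entries with estimated counts, which were rounded here, and with values headed as FPKM that sum to 1000000 in each library and were therefore read as TPM. Its 89 entries without a gene name (0.110% to 0.125% of counts) were left out. For MeRIP-seq the authors deposited 1 peak list with pileup signal, fold enrichment as a ratio to local background and −log10 p and q. Whether replicates were pooled is not given in the sources used here.

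WT and cKO were compared with edgeR 4.0.16 (R 4.3.3) with its expression filter, TMM normalization, the quasi-likelihood test and Benjamini-Hochberg adjustment over 15327 genes at 0.05. The SE printed with edgeR values is the log2 fold change divided by the square root of the F statistic. For large changes with few counts in a group, as in Kcne4, Gprc5a and Apold1, it understates counting error. A trial on simulated counts gave both groups the same dispersion, so it did not cover the unequal spread of the WT and cKO pairs. An exact permutation test of 2 against 2 libraries cannot go below p = 0.333, so none was run. Peaks were placed by summit on GENCODE vM1 exons. Intervals are 95% exact ones and cover counting error only, and a count of 0 was set at a floor of 3 counts. Named were Kcne4, Gprc5a, the other Kcne and Gprc5 genes, the 3 genes most like each member, the nearest and all tested genes within 200 kb, and from each list the 2 with the highest level and up to 3 called genes with the largest change, and some genes that this rule names are not reported here. Alternatives were the replicate block, no filter, median-of-ratios scaling, DESeq2 1.42.0, limma 3.58.1 on log2(TPM + 0.1) and log2(TPM + 1), each library left out, the cKO libraries summed (added after seeing the data), unadjusted p under 0.05 with a 2-fold change, and other rules for peaks.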

Additional observations from a re-analysis of the deposited data

How the results depend on the processing

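With 2 libraries a group, the spread decides most calls. The 4677 genes called became 1889 to 8719 when 1 library was left out, with the low counts when a cKO library was left out (1930 without replicate 1 and 1889 without replicate 2) and the high ones when a WT library was (8719 and 7927), each lone library being assumed to vary like the other group. They became 1981 with the cKO libraries summed to 1 sample and 1611 by unadjusted p with a 2-fold change. The replicate block gave 4881 genes and −6.39 for Kcne4. Libraries of equal number deviated with a correlation of 0.0264. Since the cKO pair lay close to counting noise, this value cannot show whether the numbers are pairs.

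Kcne4 moved from −6.39 to −6.15 and −5.34 on log2(TPM + 0.1) and log2(TPM + 1) in limma, where the added constant pulls low values together, and to between −6.47 and −6.30 without 1 library. Gprc5a moved from −7.06 to −6.52 and −4.79 in the same settings, and to between −7.25 and −6.86 without 1 library. Gprc5b was called under all 11 alternatives (−1.15 to −0.77, adjusted p up to 0.0403). The Gprc5c call was lost in 6 of 11 (adjusted p up to 0.182), and Kcne3 passed in 1 of 11 (without WT replicate 2, adjusted p = 0.0356). Kcne4, Gprc5a, Gprc5b, Gprc5c and Kcne3 stayed lower in cKO under all 11 alternatives, while Kcnd1, Hebp1, Fam234b and Gabbr2, which were not called, changed sign under some. The share of tested genes with an exonic peak was 30.5% with −log10 q of at least 10, 40.9% with any overlap and 42.2% among genes of at least 10 counts in every library, and the stricter q kept 3 of the 5 family peaks, without that of Kcne4. In cKO the members' depth of 10 to 55 counts limits their precision.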
